A study of Homo sapiens with 8 samples.

Results

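The genes described here encode the replicative helicase, the enzyme that unwinds DNA at replication forks. They are 10 of the 58884 genes in the table: MCM2, MCM3, MCM4, MCM5, MCM6, MCM7, MCM10, CDC45, GINS1 and GINS2, chosen by name through their Ensembl identifiers, and all 10 had a single row. The cells were C4-2, an established line of castration-resistant prostate cancer, kept in RPMI 1640 with 10% fetal bovine serum. They received 1 µM DTHIB, also labelled E12 and described by the submitters as acting directly on HSF1, or the solvent DMSO alone, for 48 h. Each group had 4 poly(A)-selected RNA-seq libraries, and nothing else is named as differing between the groups. No label says that replicates came from different cultures; p-values therefore measure the spread between these libraries, which may be technical.

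MCM2 to MCM7 form a ring of 6 related ATPases that is loaded onto origins of replication in G1, inactive, around double-stranded DNA. At the start of S phase CDC45 and the GINS tetramer join the ring, which then becomes the active CMG helicase, and MCM10 is needed for it to start unwinding. Transcription of these genes is known to rise towards S phase under E2F factors, and MCM proteins are widely used as markers of cells that are in cycle rather than at rest.

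The libraries held 27229291 to 30926053 counted reads, and 17194 genes with a mean of at least 10 normalized counts (reads scaled for library depth) were tested, all 10 helicase genes among them. Luminal prostate markers were abundant, with 10 of 10 tested and a sum of 237500 to 241900 normalized counts in DMSO and 290600 to 297100 in DTHIB. KLK3, which encodes prostate-specific antigen, had 66682 ± 643 in DMSO and 93753 ± 1168 in DTHIB (SD, n = 4 libraries per group here and below). Of the 10, 6 rose and 4 fell. The summed markers of other cell types were low: 26.1 to 27.8 normalized counts in DMSO and 12.5 to 14.98 in DTHIB for 5 blood genes, 16.3 to 31.8 and 17.0 to 26.1 for 3 basal genes, and 132.2 to 170.3 and 144.9 to 192.8 for 3 endothelial genes. For 5 stromal genes they were 974.4 to 1063 and 1221 to 1453, most of it COL1A1. No marker was at 0 in all libraries, and their part in the results was not tested. HSF1, the labelled target of the compound, had 5260.2 ± 207 and 4897 ± 70.1 normalized counts. This lower level passed the test (limma, adjusted p = 0.00841) except under quantile normalization (adjusted p = 0.933).

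All 10 helicase genes were lower in DTHIB, where 25.3% (MCM10) to 49.98% (MCM6) of the DMSO level was measured. Their log2 fold changes ranged from -1.99 to -1.001 with a median of -1.49, against a median of -0.01 over all genes tested. Each passed the test (limma across all genes with Benjamini-Hochberg adjustment, adjusted p under 0.05, which defines "fell" and "rose" below), the largest adjusted p being 1.75e-12. Of all tested genes 64.6% changed, 33.7% falling and 31% rising. A fall with a log2 fold change of -1 or below was found in 4.36% of tested genes and in all 10 helicase genes. MCM6 lay at that threshold (-1.001). It was above -1 in most alternatives (to -0.92 under quantile normalization) and in the authors' deposited comparison (-0.997). The cut at -1 was not among the planned tests. In each of the 10 the 4 DTHIB values lay below the 4 DMSO values, as in 30.8% of tested genes, while in 27.1% they lay above. In bulk libraries a smaller share of cycling cells and less of these RNAs per cycling cell cannot be told apart.

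**Figure D1:**
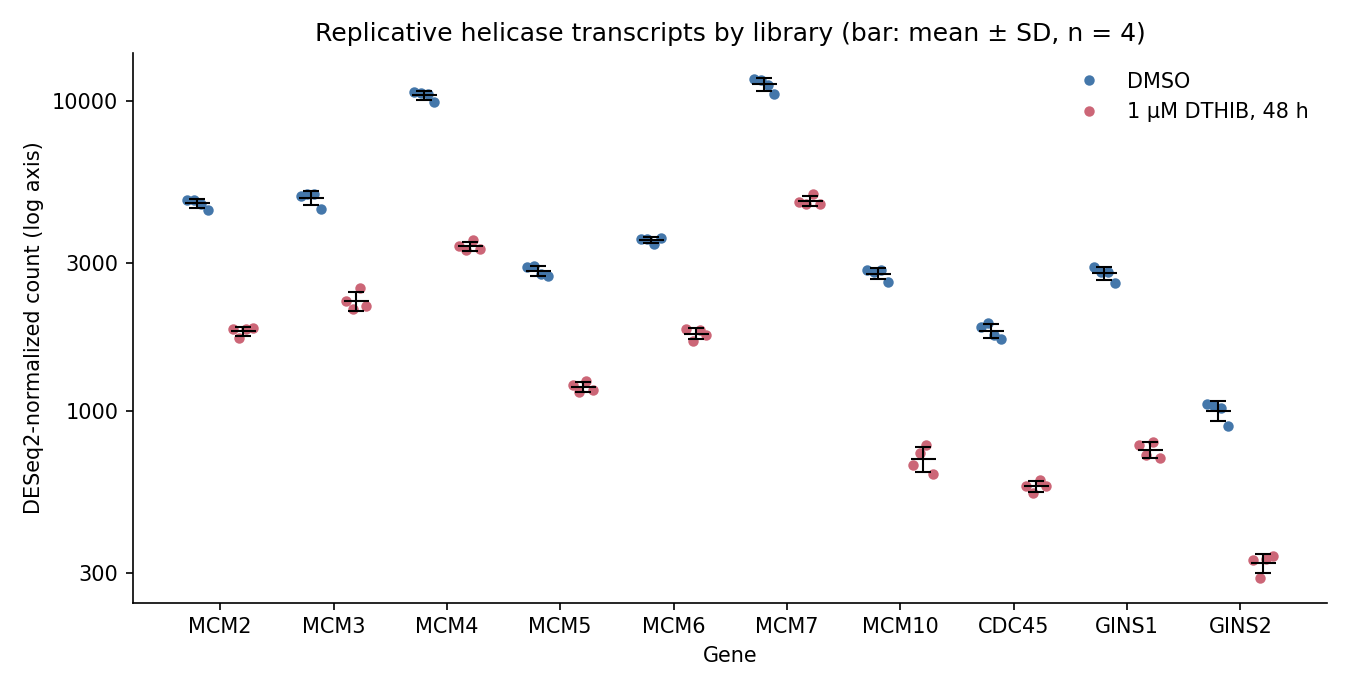
Normalized counts (log axis) of the 10 helicase genes in each library; blue points are the 4 DMSO and red points the 4 DTHIB libraries, with a bar for the mean ± SD. In every gene the red points lie below the blue ones, and the means differ most in MCM10 (2778 against 702) and least in MCM6 (3563 against 1781) as a ratio.

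The DNA around the starts of these genes is shown first. RefSeq promoter windows (GRCh38.p14, 250 bases before to 50 after a start) were given for 8 of the 10 genes, all but MCM4 and MCM5, and were searched on both strands for an E2F motif spelled TTTCCCGC or TTTCGCGC or TTTGCCGC or TTTGGCGC. A match was present in 6 of these 8 genes (MCM2, MCM3, MCM6, MCM7, GINS1 and GINS2), and in 4.0% of the 27305 genes with a window (any window of a gene). Those genes were not limited to tested ones. The share among tested or falling genes was not computed, here or for the motifs below. MCM6 held 4 matches, arranged as 2 copies of 1 run of bases in which a forward and a reverse match overlap. The MCM6 stretch upstream of its start (chr2:135876444-135876693, minus strand, outside any exon in GENCODE 29) is printed to show both copies, with the matches in capitals, 5′ to 3′.

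MCM6: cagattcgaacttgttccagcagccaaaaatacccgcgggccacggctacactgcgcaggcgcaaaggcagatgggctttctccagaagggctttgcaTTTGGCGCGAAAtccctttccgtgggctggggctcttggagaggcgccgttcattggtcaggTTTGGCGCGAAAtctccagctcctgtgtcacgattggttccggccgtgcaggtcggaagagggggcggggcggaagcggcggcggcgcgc

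Sites of the other 5 genes are given with 8 bases on each side, matches again in capitals. They show that the letters recur on either strand and near the RefSeq start. They lie at chr3:127598405-127598432 (MCM2, plus strand), chr6:52284731-52284754 (MCM3, minus), chr7:100101391-100101414 (MCM7, minus), chr20:25407670-25407693 (GINS1, plus) and chr16:85688970-85688993 (GINS2, minus). In MCM3 and MCM7 the match nearest the start is shown, and each also had 1 farther upstream, beginning 174 and 187 bases before the start.

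MCM2: gaaccactTTTCGCGCGAAAcctggttg

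MCM3: tcggaagtTTTCGCGCcggggtgg

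MCM7: gggcgacgTTTCGCGCcaatttcg

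GINS1: tttgttcgGCGCCAAAgcgcggag

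GINS2: tcgccgtgGCGGGAAAacggcggc

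MCM2, like MCM6, had overlapping forward and reverse matches. MCM10 and CDC45 had no match to these letters, although MCM10 had the largest log2 fold change of the helicase genes; this says only that the letters are not in the windows. The upstream stretch of MCM10 (chr10:13161308-13161553, plus strand) is printed for comparison, with no capitals because no E2F match is there.

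MCM10: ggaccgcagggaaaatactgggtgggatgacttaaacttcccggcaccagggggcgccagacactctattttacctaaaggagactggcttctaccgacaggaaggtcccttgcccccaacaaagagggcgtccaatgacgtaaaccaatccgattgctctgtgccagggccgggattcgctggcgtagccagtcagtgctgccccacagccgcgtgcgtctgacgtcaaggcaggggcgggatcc

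The letters CCAAT, the box bound by NF-Y, were found on either strand in 7 of the 8 genes, all but MCM2, and in 39.7% of genes with a window. The CHR motif of genes expressed late in the cycle (TTTGAA or TTCGAA) was found in MCM6 alone of the 8, and in 19.5% of genes with a window. A heat shock element core (GAANNTTC or TTCNNGAA), the kind of sequence that HSF1 binds, was found in none of the 8 and in 16.2% of genes with a window. These matches are descriptions of the windows and not evidence of binding.

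**Figure D2:**
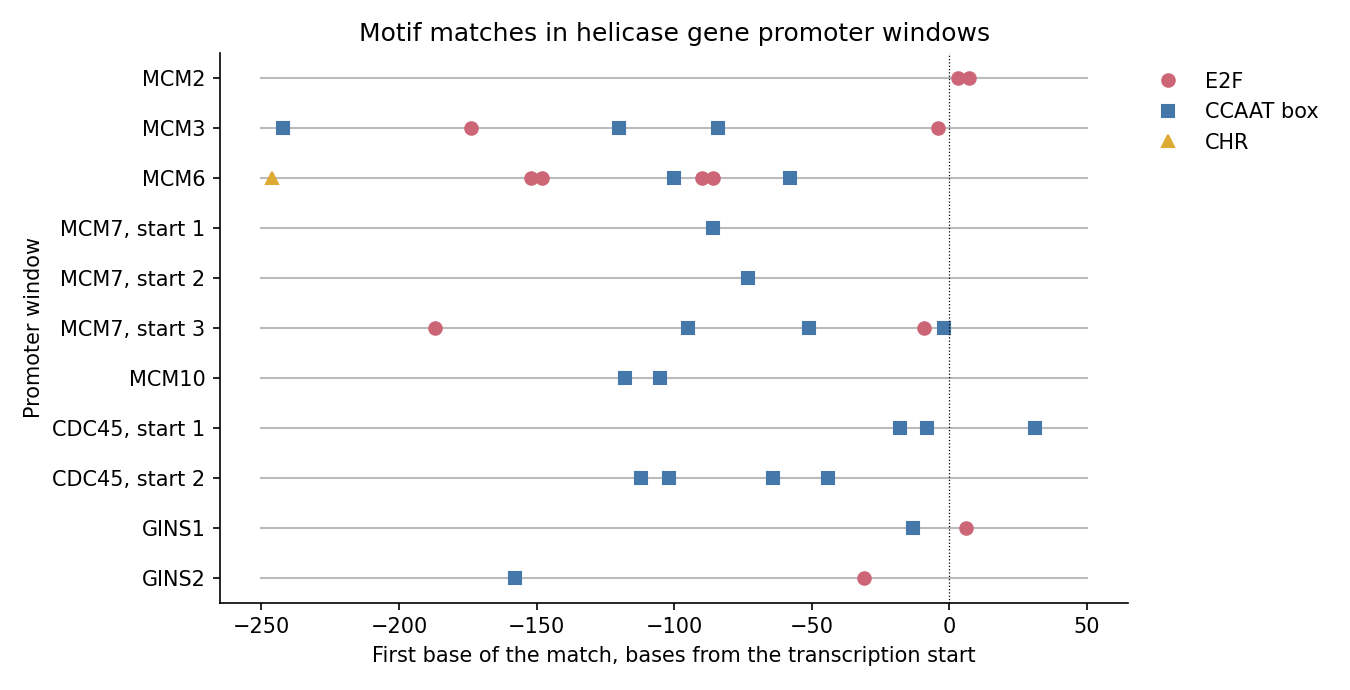
Positions of E2F (red circles), CCAAT (blue squares) and CHR (yellow triangle) matches in the promoter windows, on either strand, as the distance of the first base of a match from the transcription start; grey lines are windows of 250 bases before to 50 after a start, and 1 CDC45 window without a match is not drawn. E2F matches lie in 6 of the 8 genes and CCAAT matches in 7.

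Among the ring subunits MCM4, a core helicase subunit, fell furthest. Its normalized counts were 10701, 10586, 10518 and 9963 in DMSO replicates 1 to 4, and 3409, 3300, 3556 and 3340 in DTHIB replicates 1 to 4. The groups are far apart, the highest DTHIB library holding 35.7% of the lowest DMSO library. On the log2 scale MCM4 changed by -1.62 (SE 0.032), with an adjusted p of 2.83e-16 in limma. MCM2, whose N-terminal tail also binds histones H3 and H4, had 4785, 4815, 4643 and 4463 in DMSO and 1836, 1723, 1836 and 1855 in DTHIB. Its log2 fold change was -1.37 (SE 0.035).

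MCM7 and MCM5 fell by the same amount on the log2 scale, -1.25 each (SE 0.036 and 0.037). MCM7, the host of the miR-106b, miR-93 and miR-25 cluster, had 11757, 11679, 11287 and 10551 normalized counts in DMSO. In DTHIB it had 4723, 4675, 5029 and 4663, the third DTHIB replicate standing above the other 3. MCM5, which with MCM2 forms the gate through which DNA enters the ring, had 2922, 2930, 2780 and 2726 in DMSO and 1216, 1153, 1248 and 1171 in DTHIB.

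MCM3 and MCM6 kept the largest part of their DMSO level. For MCM3, a partner of MCM5 in the ring, the DMSO libraries held 4948, 5020, 5033 and 4492 normalized counts and the DTHIB libraries 2259, 2137, 2497 and 2190, which is 46.6% on average. Its log2 fold change was -1.10 (SE 0.046). MCM6, the subunit that contacts the licensing factor CDT1, had 3604, 3587, 3450 and 3610 in DMSO and 1840, 1688, 1832 and 1762 in DTHIB, with a log2 fold change of -1.001 (SE 0.034). The highest DTHIB library held 55.6% of the lowest DMSO library for MCM3, the narrowest gap among the 10 genes, and 53.3% for MCM6.

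The 4 factors that join or start the ring had log2 fold changes of -1.63 to -1.99. GINS2 (-1.63) and MCM4 (-1.62) were too close to order: without DTHIB replicate 2 they had -1.58 and -1.60. MCM10, the firing factor, had 2846, 2812, 2845 and 2608 normalized counts in DMSO and 672, 732, 779 and 625 in DTHIB. With a log2 fold change of -1.99 (SE 0.056) it ranked 74 among the 17194 tested genes, counted from the lowest fold change. Its DTHIB libraries also varied most, with a coefficient of variation of 9.58% against 2.13% to 7.12% in all other groups of helicase values.

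GINS1, a GINS subunit also called PSF1, had 2921, 2809, 2808 and 2599 in DMSO and 776, 723, 796 and 706 in DTHIB, a log2 fold change of -1.89 (SE 0.046). CDC45, which joins the ring with GINS, had 1868, 1931, 1763 and 1713 in DMSO and 575, 543, 599 and 573 in DTHIB. Its log2 fold change was -1.67 (SE 0.046), and its DTHIB values were 31.5% of DMSO on average. GINS2 (PSF2), another GINS subunit, had 1053, 1039, 1025 and 898 in DMSO against 332, 291, 334 and 340 in DTHIB, with -1.63 (SE 0.063). In the authors' deposited table the log2 fold changes of these 4 were -1.97 (MCM10), -1.88 (GINS1), -1.65 (CDC45) and -1.61 (GINS2), while MCM4 had -1.61 and MCM6 -0.997.

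Libraries of a group differed little and in a shared way. DMSO replicate 4 had the lowest value of its group in 9 of the 10 genes, all but MCM6, and DTHIB replicate 3 the highest in 7. Together the 10 genes took 43534 to 49496 reads of a DMSO library and 16276 to 18530 of a DTHIB library. When any single library was left out, all 10 genes still fell; the log2 fold change of MCM10 then ranged from -2.04 to -1.93 and that of MCM6 from -1.02 to -0.98.

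The subunits of the ring occur once each in the complex, so it was asked whether neighbours in the ring, in the order MCM2, MCM6, MCM4, MCM7, MCM3, MCM5 and back to MCM2, fell by different amounts. The log2 ratio of each neighbouring pair was taken within a library, where the size factor cancels. All 6 ratios, and that of GINS1 to GINS2, differed between the groups with no overlap between libraries. Each gave p = 0.0286 in a two-sided exact permutation test over the 8 libraries, the smallest p that 4 against 4 allows. After Benjamini-Hochberg adjustment over the 7 ratios this permutation p stayed 0.0286. The 6 ring ratios form a closed loop and are therefore not independent results. With 64.6% of tested genes changed, other gene pairs may separate too. Their share was not computed, so the separation is not read as particular to these subunits.

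The largest shift was that of MCM6 to MCM4. In DMSO this log2 ratio was -1.57, -1.56, -1.61 and -1.46, and in DTHIB -0.89, -0.97, -0.96 and -0.92, a difference of 0.62 (SE 0.035). MCM4 thus lost more of its level than MCM6 in the DTHIB libraries. The ratio of MCM2 to MCM6 went from 0.39 ± 0.058 to 0.03 ± 0.035 (difference -0.37, SE 0.034), MCM2 losing more than MCM6. That of MCM4 to MCM7 went from -0.12 ± 0.028 to -0.49 ± 0.015 (difference -0.37, SE 0.016).

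The other ring ratios moved less. MCM7 to MCM3 changed by -0.14 (SE 0.031), MCM3 to MCM5 by 0.14 (SE 0.039) and MCM5 to MCM2 by 0.12 (SE 0.024). For MCM3 to MCM5 the highest DMSO library (0.86) lay just under the lowest DTHIB library (0.89). GINS1 to GINS2 went from 1.47 ± 0.043 to 1.21 ± 0.11, a difference of -0.26 (SE 0.060), with DTHIB replicate 4 lowest at 1.05.

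**Figure D3:**
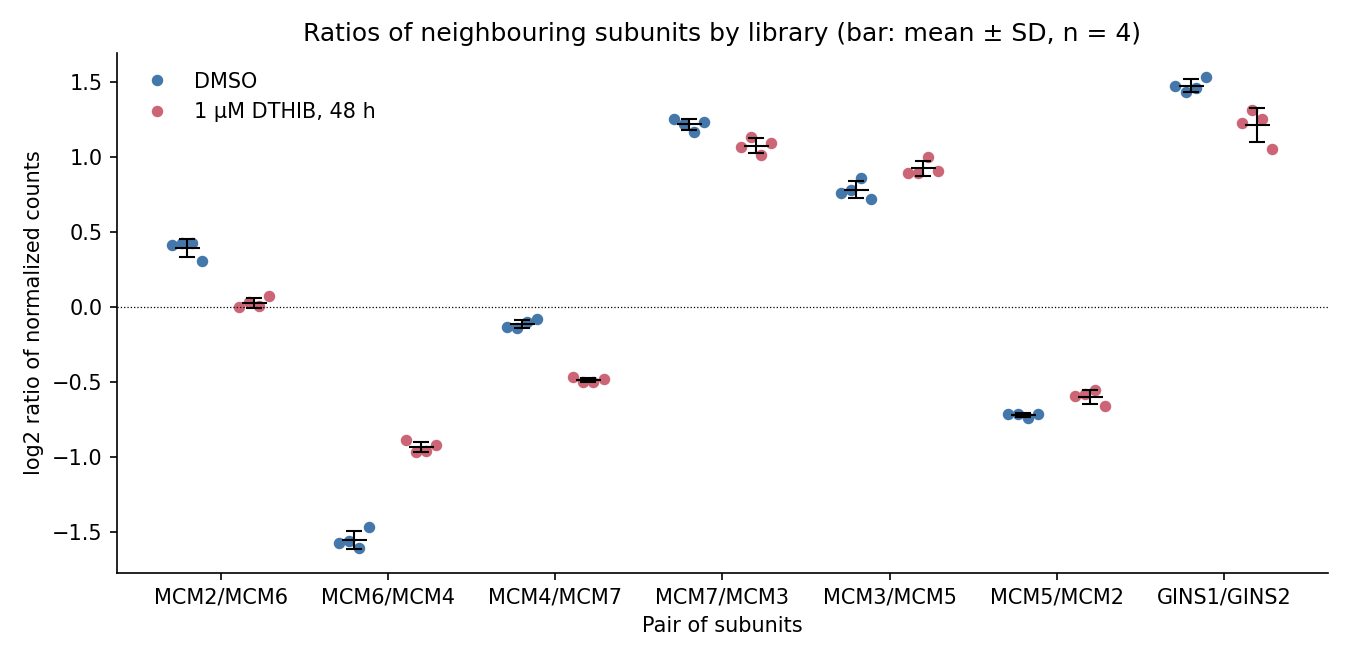
Log2 ratios of normalized counts for the 6 neighbouring pairs of the MCM ring and for GINS1/GINS2, 1 point per library (blue DMSO, red DTHIB) with a bar for the mean ± SD. The groups are separate in each pair, and the means differ most in MCM6/MCM4 (-1.55 against -0.93) and least in MCM5/MCM2 (-0.72 against -0.60), while the libraries come closest in MCM3/MCM5 (0.86 against 0.89).

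Levels of different genes were compared per kilobase of merged exons (GENCODE 29). In DMSO the order was MCM7 (2581 ± 126 normalized counts per kilobase), MCM4 (1497 ± 47.0), MCM3 (1335 ± 70.4), MCM2 (954.0 ± 32.8), MCM6 (865.2 ± 18.4), GINS1 (684.5 ± 33.0), CDC45 (639.0 ± 34.8), MCM10 (509.4 ± 20.9), MCM5 (386.9 ± 14.0) and GINS2 (307.5 ± 21.9). GINS1 and CDC45 differed by less than the sum of their SDs. In DTHIB MCM7 was again highest (1088 ± 39.5) and GINS2 lowest (99.3 ± 6.90), while MCM3 (622.1 ± 43.5) stood above MCM4 (487.8 ± 16.2), and MCM6 (432.4 ± 17.1) above MCM2 (369.7 ± 12.32). CDC45 (201.1 ± 8.09) and GINS1 (184.5 ± 10.5) again differed by less than the sum of their SDs, and MCM5 (163.1 ± 5.91) stood above MCM10 (128.7 ± 12.33).

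Of the 6 ring subunits MCM7 was highest and MCM5 lowest in both groups. The highest was 6.67 times the lowest in both groups (SD 0.137 in DMSO, 0.126 in DTHIB). Merged exons include those of every annotated transcript, 7338 bases for MCM5 against 3534 in its principal transcript. With principal transcripts the ratio was 4.76 in DMSO and 4.77 in DTHIB. The order of the genes also depended on the length. By principal transcripts MCM4 (813.1 ± 27.0 per kilobase) stood above MCM3 (707.8 ± 49.5) in DTHIB. MCM2 (500.4 ± 16.7) and MCM6 (476.6 ± 18.9) then differed by less than the sum of their SDs. By coding length GINS1 stood above all but MCM7 in DMSO (4735 ± 228). In DTHIB GINS1 (1276 ± 72.4) and MCM4 (1254 ± 41.6) differed by less than the sum of their SDs. GINS2 was then not the lowest in either group (1808 ± 129 in DMSO, 584.2 ± 40.6 in DTHIB). MCM10 was lowest by that length in DTHIB. In DMSO CDC45 (1014 ± 55.2) was lowest by that length, but it differed from MCM10 (1058 ± 43.5) by less than the sum of their SDs.

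Close relatives outside the 10 genes fell too, with 1 exception. GINS4 fell from 1325 ± 73.7 to 375.2 ± 43.0 normalized counts (log2 fold change -1.82) and GINS3 from 884.4 ± 33.4 to 338.3 ± 12.99 (-1.38), so that all 4 subunits of the GINS tetramer were lower. MCM8, a helicase of recombination that pairs with MCM9, fell from 571.8 ± 37.7 to 218.0 ± 19.1 (-1.39), and their loader HROB from 223.4 ± 28.7 to 69.3 ± 15.5 (-1.69). MCM9 itself had 393.0 ± 23.4 in DMSO and 419.7 ± 20.3 in DTHIB, a log2 difference of 0.10 that did not pass (SE 0.061, adjusted p = 0.181 in limma). MCMBP, a chaperone-like partner of newly made MCM proteins, fell by 0.72 on the log2 scale.

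The factors that load the ring divided by size of change. All 9 licensing genes fell, with a median log2 fold change of -1.40. CDC6, the ATPase that acts with the origin recognition complex, fell from 3733 ± 125 to 1285 ± 56.9, and CDT1, which brings in the MCM ring, from 2001 ± 49.1 to 759.0 ± 49.3. Within the origin recognition complex ORC1 (-1.64) and ORC6 (-1.60) lay in the range of the helicase genes, whereas ORC2 (-0.37), ORC3 (-0.46), ORC4 (-0.18) and ORC5 (-0.31) had log2 fold changes nearer 0. Geminin (GMNN), the inhibitor of CDT1, had -1.45.

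All 11 genes of helicase activation fell, with a median of -0.98. The kinase CDC7, which phosphorylates the MCM ring, fell from 2866 ± 128 to 1067 ± 62.8, and its activator DBF4 from 2533 ± 65.0 to 1221 ± 119. Cyclin E2 (CCNE2) had a log2 fold change of -1.50, the TOPBP1 partner TICRR -1.37, RECQL4 -0.92 and TOPBP1 itself -0.75.

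Genes that act behind or beside the helicase at the fork were mostly lower. Of 8 fork accessory genes 6 fell (median -0.99), led by the checkpoint mediator CLSPN (-1.73), the polymerase alpha tether WDHD1 (-1.36) and TIMELESS (-1.15), while RTF2 (-0.01) and CHTF8 (-0.09) did not pass. RTF2 passed as higher under quantile normalization (adjusted p = 0.024). Of 12 polymerase and primase subunits 10 fell (median -0.86), among them the primase PRIM1 (-1.35), POLA1 (-0.79) and POLE3 (-0.77). The catalytic subunit POLE, which travels with the CMG helicase on the leading strand, had 2144 ± 76.5 in DMSO and 2061 ± 139 in DTHIB (-0.06, limma adjusted p = 0.252), and passed only without DTHIB replicate 2 (adjusted p = 0.0497). POLD4 had 0.02.

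All 12 clamp, clamp loader, flap and ligation genes fell (median -1.13), with FEN1 at -1.89, the sliding clamp PCNA at -1.29 and RFC2 at -1.30. The single-strand binding genes RPA1, RPA2 and RPA3 fell, with -0.51, -0.80 and -0.79. Factors that take the helicase off DNA after replication changed least: 9 of 11 fell and ELOB rose (0.20), with a median of -0.22. In that list LRR1, the substrate receptor of the unloading ubiquitin ligase, fell from 746.2 ± 35.2 to 354.0 ± 15.1 (-1.07) and the ligase TRAIP from 429.5 ± 35.6 to 167.4 ± 5.06 (-1.35), while the general factors CUL2 (-0.37) and VCP (-0.16) fell less and UBXN7 (0.05) did not pass. Under quantile normalization 7 of the 11 fell and 2 rose.

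**Figure D4:**
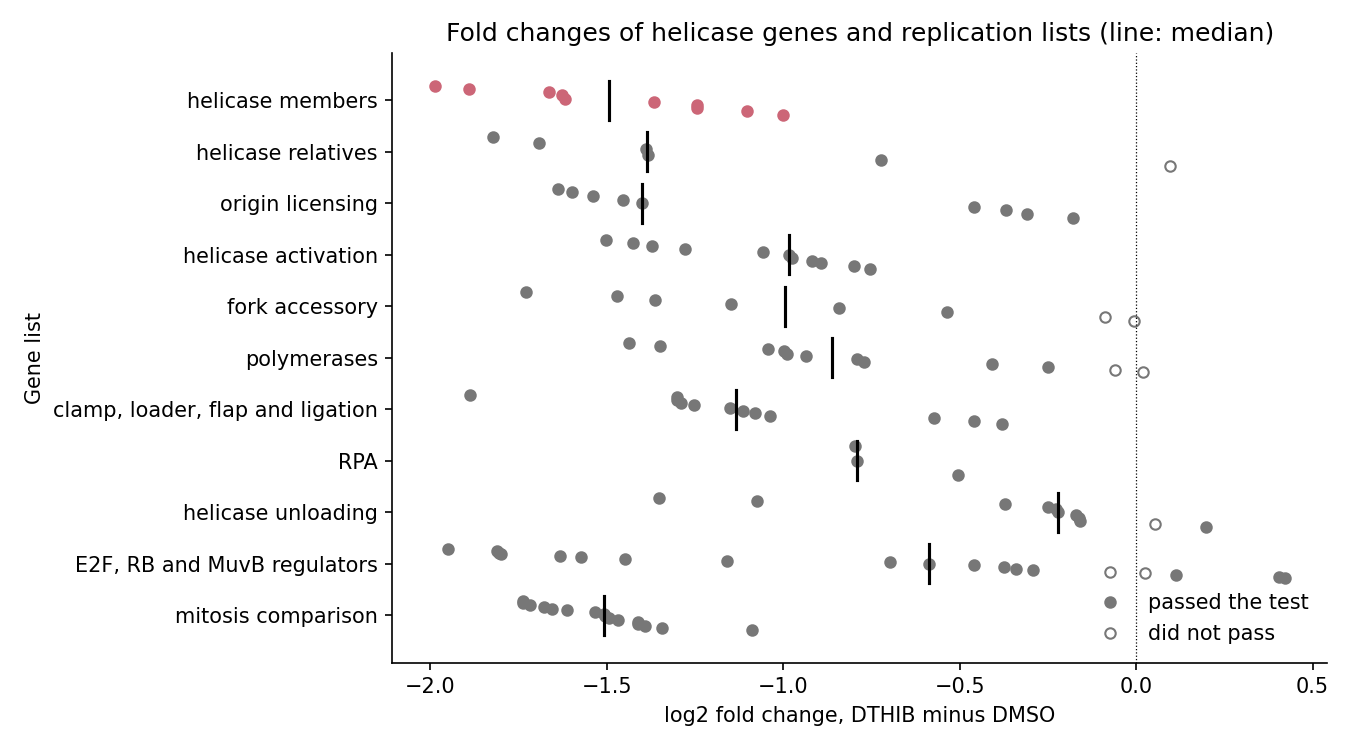
Log2 fold changes of the helicase genes (red) and of genes in 10 other lists (grey), 1 point per gene; filled points passed the test, open points did not, and the line is the median of a list. The helicase genes span -1.99 to -1.001, while the origin licensing genes fall into a part near -1.5 and a part between -0.46 and -0.18.

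Of 19 E2F, RB and MuvB genes, a list of transcription regulators of the cell cycle, 14 fell and 3 rose (median -0.59). E2F1, an activator, fell from 3464 ± 146 to 990.0 ± 25.3, the repressor E2F8 from 804.8 ± 23.0 to 230.6 ± 16.4, and MYBL2 from 7633 ± 221 to 1981 ± 187. E2F5 (0.42), RBL2 (0.11) and LIN37 (0.41) rose. Other MuvB and RB family genes of the list fell: LIN9 (-1.45), LIN54 (-0.70), LIN52 (-0.29), RBL1 (-1.16) and RB1 (-0.46). The call of LIN37 was lost under quantile normalization (limma, adjusted p = 0.0647). It was also lost in the fits without DMSO replicate 1 or 4 or DTHIB replicate 1 or 2. E2F4 (0.02) and TFDP2 (-0.07) did not pass, but E2F4 passed as higher under quantile normalization (adjusted p = 0.00586) and TFDP2 as lower without DTHIB replicate 3 (adjusted p = 0.0271). The 16 mitosis genes taken for comparison, which act later in the cycle than the helicase, all fell with a median of -1.51, close to the -1.49 of the helicase genes; the difference was not tested. CDK1 had -1.74, UBE2C -1.65 and PLK1 -1.61.

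By their GENCODE 29 starts, which can differ from the RefSeq starts above, several helicase genes begin beside another gene on the opposite strand. Those neighbours had log2 fold changes of -0.25 to 0.11. MCM4 (chromosome 8, 47960185 to 47978160, plus strand, GRCh38 in GENCODE 29) starts 2 bases from PRKDC, the catalytic subunit of the DNA-dependent protein kinase. PRKDC had 13109, 13636, 11065 and 11732 normalized counts in DMSO and 11899, 14897, 13410 and 13220 in DTHIB, overlapping groups whose log2 difference of 0.11 did not pass (SE 0.063, adjusted p = 0.135 in limma). It passed as higher without DMSO replicate 2 (adjusted p = 0.0356) or without DTHIB replicate 1 (adjusted p = 0.0273).

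MCM7 (chromosome 7, 100092728 to 100101940, minus strand) shares 392 exonic bases at its start with AP4M1, an adaptor complex subunit. AP4M1 had 890.2 ± 28.1 in DMSO and 884.2 ± 19.95 in DTHIB (log2 fold change -0.01, limma adjusted p = 0.852). TPRA1, which starts 44 bases from MCM2 (chromosome 3, 127598223 to 127622436, plus strand), had 1745 ± 47.7 and 1637 ± 45.5, a log2 fold change of -0.09 that passed (limma adjusted p = 0.0304). That call was lost in 8 of 17 alternatives, among them quantile normalization (adjusted p = 0.96). UFD1, a cofactor of the unloading ATPase VCP that starts 244 bases from CDC45 (chromosome 22, 19479459 to 19520612, plus strand), fell from 1879 ± 44.1 to 1581 ± 60.6, a log2 fold change of -0.25 against the -1.67 of CDC45.

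**Figure D5:**
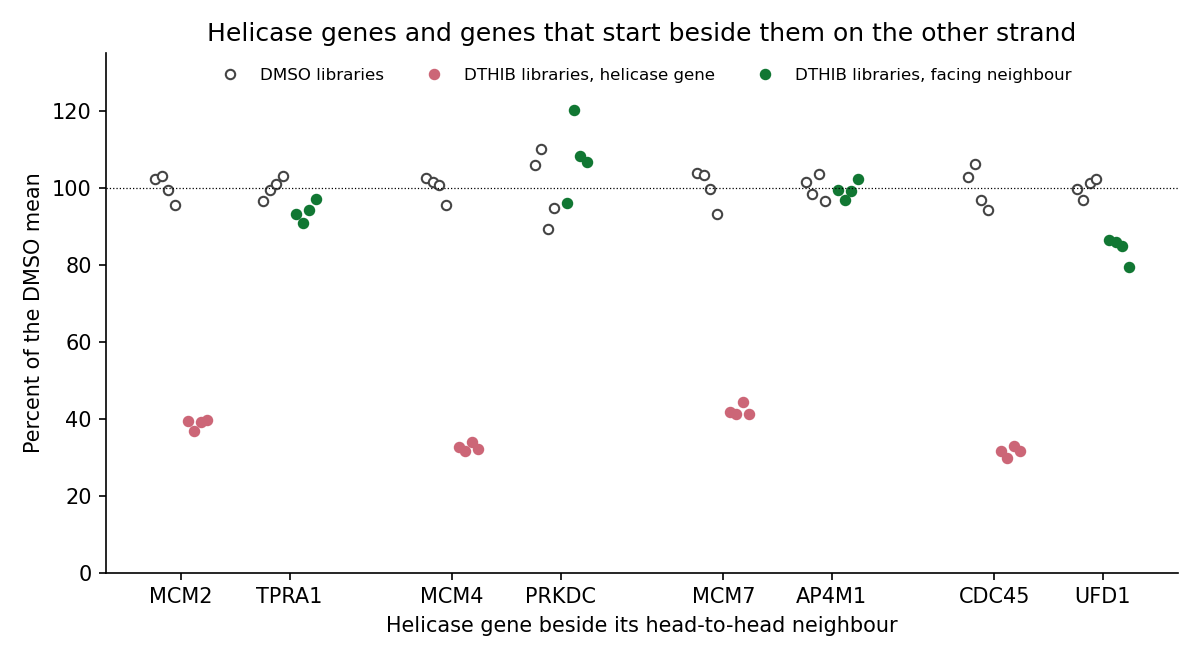
Each library as a percent of the DMSO mean of the same gene for 4 helicase genes and the genes that start within 1000 bases of them on the other strand; open points are DMSO libraries, red points DTHIB libraries of the helicase gene and green points DTHIB libraries of the neighbour. The red points lie far below the open ones, while the green points of PRKDC, AP4M1 and TPRA1 overlap them.

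Other annotated genes lie inside or across the helicase genes. The antisense RNA AC023593.1, which shares 1113 exonic bases with MCM2, rose from 238.9 ± 19.2 to 376.7 ± 18.6 (log2 fold change 0.66, limma adjusted p = 4.05e-07) while MCM2 fell. No source used here gives the strand setting of the counting, so reads of MCM2 and its antisense partner may not be separated, and the same holds for the shared bases of MCM7 with AP4M1 and MCM2 with TPRA1. GSE1, which overlaps GINS2 (chromosome 16, 85676198 to 85690073, minus strand) by 7 exonic bases, had a log2 fold change of 0.07 whose call was lost in 7 of 17 alternatives. The row of MIR25, inside an intron of MCM7, held 28.7 ± 6.82 normalized counts in DMSO and 31.1 ± 2.87 in DTHIB (log2 fold change 0.14, limma adjusted p = 0.572). The rows of MIR93 and MIR106B held 14 and 15 reads over all 8 libraries and were not tested; poly(A) libraries do not measure mature miRNAs.

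The remaining genes lie at chromosome 6, 52264009 to 52284881 (MCM3), chromosome 22, 35400063 to 35425430 (MCM5), chromosome 2, 135839626 to 135876426 (MCM6), chromosome 10, 13161554 to 13211104 (MCM10) and chromosome 20, 25407727 to 25452628 (GINS1). None of these 5 had a neighbour under the same rule.

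Genes most like the ring were searched for by Pearson's r, over the 8 libraries, with the mean log2 level of MCM2 to MCM7, among 11640 genes with a symbol and a mean of at least 100. PCNA came first (r = 0.9999), then FEN1 (0.9998), the exonuclease EXO1 (0.9997), the ribonucleotide reductase subunit RRM2 (0.9996) and the kinesin KIF22 (0.9995). These values are a description: the 8 libraries share 2 treatment groups, and the step between the groups sets most of each r.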

How the data were processed

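RNA-seq libraries of C4-2 cells (4 DTHIB, 4 DMSO) were assigned to groups from their titles. The submitters' processing notes name the build GRCh38 and, in no stated order, DESeq2 2.11.40.2, featureCounts 1.6.3, StringTie 1.3.4, HISAT2 2.1.0 and Trimmomatic 0.36.5. No source used here gives their settings, strand mode or annotation. The deposited signal per gene and library was, by its name, a DESeq2-normalized count. A second deposited table, of the authors' DESeq2 test, held per gene a log2 fold change with its standard error and Wald score, a p-value, an adjusted p-value and the mean level; its sign matched DTHIB minus DMSO in 99.96% of genes with a mean above 10. In each library 100% of values were whole multiples of 1 step (tolerance 0.01), which gave whole reads. No column of per-sample values was left out.

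The scale of analysis was log2(normalized count + 1), which understates changes of low genes. Genes with a mean of at least 10 were fitted with limma 3.58.1 in R 4.3.3 (two-sided, eBayes with a trend, no covariates). Chi-square statistics per gene of 2.39 to 5.2 within groups, against 51.6 or more between them, showed no library deposited more than once. Of the gene identifiers 41967 had a symbol. The fit was tested on simulated data. No protein sequences were used. The members and lists were chosen with earlier results of these data known. Named genes were the 10 members, up to 3 genes per list and direction with the smallest adjusted p, and list genes that did not pass. Neighbours, KLK3, HSF1 and the 5 genes most like the ring were also named. Other list genes named (MCM8, HROB, ORC1 to ORC5, GMNN, DBF4, TICRR, TOPBP1, VCP, LIN9, LIN52, LIN54, RB1, RBL1) were added after their values were seen. Alternatives changed the pseudocount (0.5 or 5), the filter (none, or a mean of 50 or more), the scaling (TMM or quantile), the test (edgeR 4.0.16 or DESeq2 1.42.0, on recovered reads), added a replicate block, or left out 1 library.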

Additional observations from a re-analysis of the deposited data

Results flagged for a closer look

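In 34 groups of 4 values (each helicase gene and each subunit ratio in each treatment), 8 had a highest or lowest library whose gap to the next was a larger part of the group's range than Dixon's 95% critical value allows; chance flags about 1 in 20 such groups, and the groups share libraries. DMSO replicate 4 was low for MCM3 (4492.18 normalized counts), for MCM10 (2608.33) and for the log2 ratio of MCM2 to MCM6 (0.3058). DMSO replicate 3 was low for MCM6 (3450.06). DTHIB replicate 2 was low for MCM2 (1722.85) and GINS2 (290.79), and DTHIB replicate 3 was high for MCM7 (5029.42) and for the log2 ratio of MCM3 to MCM5 (0.9994). Without DMSO replicate 4 all 10 helicase genes still fell, with a median log2 fold change of -1.51 against -1.49 with it.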

How the results depend on the processing

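All 10 helicase genes fell in each of the 17 alternatives, with log2 fold changes of -2.04 to -1.91 for MCM10 and -1.02 to -0.92 for MCM6; counts over all genes stayed within 1.5 times (11110 changed, 9483 to 11557 in the alternatives, 11130 with edgeR and 10283 with DESeq2 on recovered reads, and 10367 to 10893 without 1 library). Replicate numbers did not pair the samples (residual correlations of -0.07 to 0.01). With the number as a replicate block 11058 genes changed, 1 of the 4 numbers correlated best with itself across the groups, and the 7 ratio differences kept their values (-0.37 MCM2/MCM6, 0.62 MCM6/MCM4, -0.37 MCM4/MCM7, -0.14 MCM7/MCM3, 0.14 MCM3/MCM5, 0.12 MCM5/MCM2, -0.26 GINS1/GINS2) with adjusted p = 0.125 in an exact sign-flip permutation test, the smallest p that 4 pairs allow. Without 1 library the difference for MCM3/MCM5 was 0.12 to 0.17 and that for MCM5/MCM2 0.11 to 0.14, with an exact permutation p of 0.0571 in 4 of the 8 fits each, where 3 against 4 libraries cannot go below 0.0286. Per kilobase, the highest ring subunit over the lowest moved from 6.67 to 4.07 with coding lengths (GENCODE 29, since no protein table was given) in both groups, and to 4.76 in DMSO and 4.77 in DTHIB with principal transcripts, an alternative chosen after seeing the data. The least abundant helicase gene, GINS2, held over 290 normalized counts in each library. The part of counting error in the spread between libraries was not computed.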
